A study of Mus musculus with 82 samples.

Results

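Long noncoding RNAs expressed in mouse aortic vascular smooth muscle cells (aVSMC) are described here. They were selected on their level, as the genes of the count tables with the biotype lincRNA (long intergenic noncoding RNA) or antisense, outside chromosomes 9, X, Y and MT, with a mean of at least 2 CPM (reads of a gene scaled to a common library total, as counts per megaread) over the 42 libraries of the 24 h experiment. This left 142 of 55401 genes, 80 lincRNAs and 62 antisense RNAs, out of 7404 lincRNA or antisense genes on these chromosomes, and 4530 of those had a read in some library of 24 h. No gene carried the biotype lncRNA (0 genes). The biotypes were those of the deposited tables, and GENCODE M21 lists 4 of the 142 under another biotype, among them Gm10762 and Gm10638 as protein-coding genes. Because the mean level after 24 h chose these RNAs, their levels are given as a description without a test. Closest above the minimum were Gm49207, Gm10825 and 2900076A07Rik with 2.0003, 2.0045 and 2.0214 CPM, and closest below it were 4933427G23Rik, BC037039 and 5033406O09Rik with 1.9747, 1.9732 and 1.9555 CPM.

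RNA came from primary cultures of aortic smooth muscle cells of C57BL/6 mice, used for up to 7 passages, so that the model is a passaged culture and not the vessel wall. Cells were kept for 24 h in medium without serum and supplements and then incubated with EGF (10 µg/L, ligand of the EGF receptor EGFR), AngII (angiotensin II, 10 nM, ligand of the receptor AT1R), U46619 (1 µM, agonist of the thromboxane A2 receptor TP), their combinations, or no agent (control). After 24 h there were 7 groups of 6 cultures from 6 mice: control, the 3 agents singly, EGF+AngII, EGF+U46619 and the 3 agents together. After 48 h there were 40 libraries in 2 batches of 5 culture sets, a set being the 4 incubations that share a replicate number. Each batch had controls and cultures with EGF; one added U46619 alone and with EGF (the EGF/U46619 batch), the other AngII alone and with EGF (the EGF/AngII batch), so that control and EGF had 10 cultures and the other groups 5.

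Long noncoding RNAs are transcripts without a long open reading frame. Some stay in the nucleus, where they build nuclear bodies or act on chromatin close to their own gene, and others serve mainly as precursors, from whose introns or exons small nucleolar RNAs (snoRNAs) or microRNAs are released. Many antisense and bidirectional RNAs start beside the promoter of a coding gene and are read from the opposite strand. In the vessel wall, Carmn, Malat1, Meg3 and H19 have been studied in smooth muscle cells, and H19 is an imprinted RNA that is abundant in fetal tissue and low in the adult vessel.

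Libraries of 24 h held 16483529 to 20818809 counts, and those of 48 h 19936925 to 33916114. Reads that align to several places had been counted, and a strand setting is not given in the sources used here, so reads of an RNA cannot be told apart from those of a gene that overlaps it on the other strand. Deviations from the group means ran together within each mouse after 24 h, and within 9 of the 10 culture sets after 48 h. In the other set (replicate 4 of the EGF/AngII batch), the control library resembled the libraries of replicate 2. Among the 24 h libraries, the library of mouse 3 with all 3 agents stood apart in some RNAs, with 18.1 CPM of Malat1 where the other 5 libraries of its group had 208.6 to 775.4 CPM. Values without this mouse are given where they differ.

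Levels were low and uneven. The 142 RNAs together took 0.218% ± 0.0362 (SD, n = 42) of the counts of a library after 24 h and 0.225% ± 0.0266 (n = 40) after 48 h. Their median mean level was 4.38 CPM, against 25.8 CPM for the 12144 protein-coding genes tested after 24 h, without a correction for length. Malat1, a nuclear RNA of splicing speckles, led with a mean of 420.1 CPM, followed by Neat1, the scaffold of paraspeckles, with 227.0 CPM and 2900097C17Rik with 207.8 CPM. These 3 RNAs made up 39.2% of all counts of the 142 after 24 h and 39.6% after 48 h. Next came Brip1os (99.9 CPM), the imprinted RNA Meg3 (89.4 CPM), Oip5os1 (80.9 CPM), Gm47381 (50.1 CPM), Gm15564 (48.0 CPM) and the snoRNA hosts Snhg18 (39.2 CPM) and Snhg6 (38.8 CPM). Only 35 RNAs reached a mean of 10 CPM and 66 reached 5 CPM. Per kilobase of exon, Malat1 (60.2 CPM per kilobase), Gm15564 (58.4), Gm47381 (52.7), 2900097C17Rik (42.3) and Snhg6 (33.8) were highest, and this is the scale on which genes can be compared. On that scale Brip1os had rank 11, Neat1 rank 17 and Meg3 rank 39, where by CPM they had ranks 4, 2 and 5. Of the 50-base words in the transcripts of 2900097C17Rik, 39.5% also occur in Gm7292, so the counts of these genes cannot be told apart in full. The order of the RNAs was similar at both times (Spearman's rho 0.898 across 142 RNAs, which share libraries and are not replicates), and 133 of them had a 48 h mean within 2-fold of the 24 h mean.

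**Figure D1:**
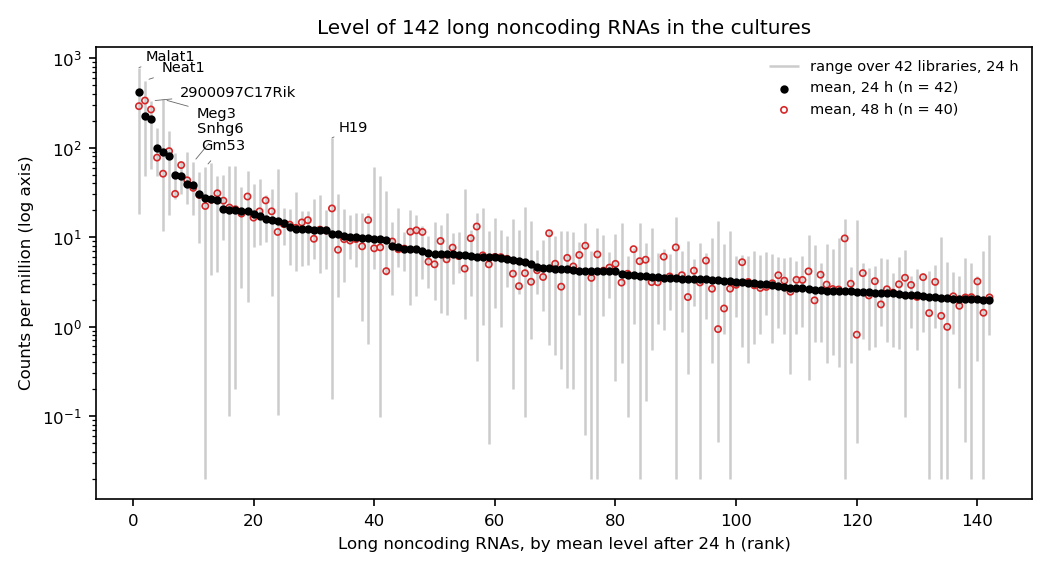
Level of the long noncoding RNAs in CPM on a log axis, with lines from the lowest to the highest library (lowest values under 0.02 CPM drawn at 0.02) and points for the mean over the 42 libraries of 24 h and the 40 libraries of 48 h. Malat1, Neat1 and 2900097C17Rik lie above 100 CPM, and most of the 142 RNAs lie under 10 CPM.

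All 142 RNAs passed the filter on low counts at both times and were tested among 14653 genes after 24 h and 15796 after 48 h. An RNA is called where the Benjamini-Hochberg adjusted p (FDR) over all tested genes was under 0.05 by the quasi-likelihood test of edgeR and also by the Wald test of DESeq2, and "rose" and "fell" are used of called changes only. FDR values in the text are those of edgeR, and each log2-fold change is followed by its SE. With U46619 alone for 24 h, 42 RNAs were called, 10 higher and 32 lower. That is 29.6% of the RNAs, where 33.4% of all genes were called. The called RNAs were more often lower than those of the background: 22.5% of the RNAs fell, against 18.4% of all genes, and 7.04% rose, against 15.0% of all genes. Among protein-coding genes with at least 2 CPM, 18.2% rose and 20.4% fell. The median log2-fold change was −0.22 over the 142 RNAs and −0.06 over all genes. Whether the RNAs differ from other genes was not tested. The comparisons with control share the control cultures, so they are not independent of each other.

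EGF+U46619 called 51 RNAs after 24 h (14 higher, 37 lower), 35.9% against 39.9% of all genes. The combination of all 3 agents called 60 (19 higher, 41 lower), 42.3% against 42% of all genes. The median log2-fold changes over the RNAs were −0.22 and −0.27, beside −0.05 and −0.04 over all genes. In the 3 comparisons the share that rose was 7.04%, 9.86% and 13.4%, where 15.0%, 18.9% and 20.2% of all genes rose. The share that fell was 22.5%, 26.1% and 28.9%, where 18.4%, 21% and 21.8% of all genes fell. Leaving out 1 mouse left between 24 and 47 calls with U46619 alone, 24 of them (4 higher, 20 lower) without mouse 2. The share of all genes called is not given for fits that leave out a mouse or a culture set. Of the 42 RNAs called with U46619, 21 were called in each of the 6 fits that leave out a mouse, among them 4 of the 10 rises (Snhg6, Morrbid, 3300005D01Rik and Gm41724).

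**Figure D2:**
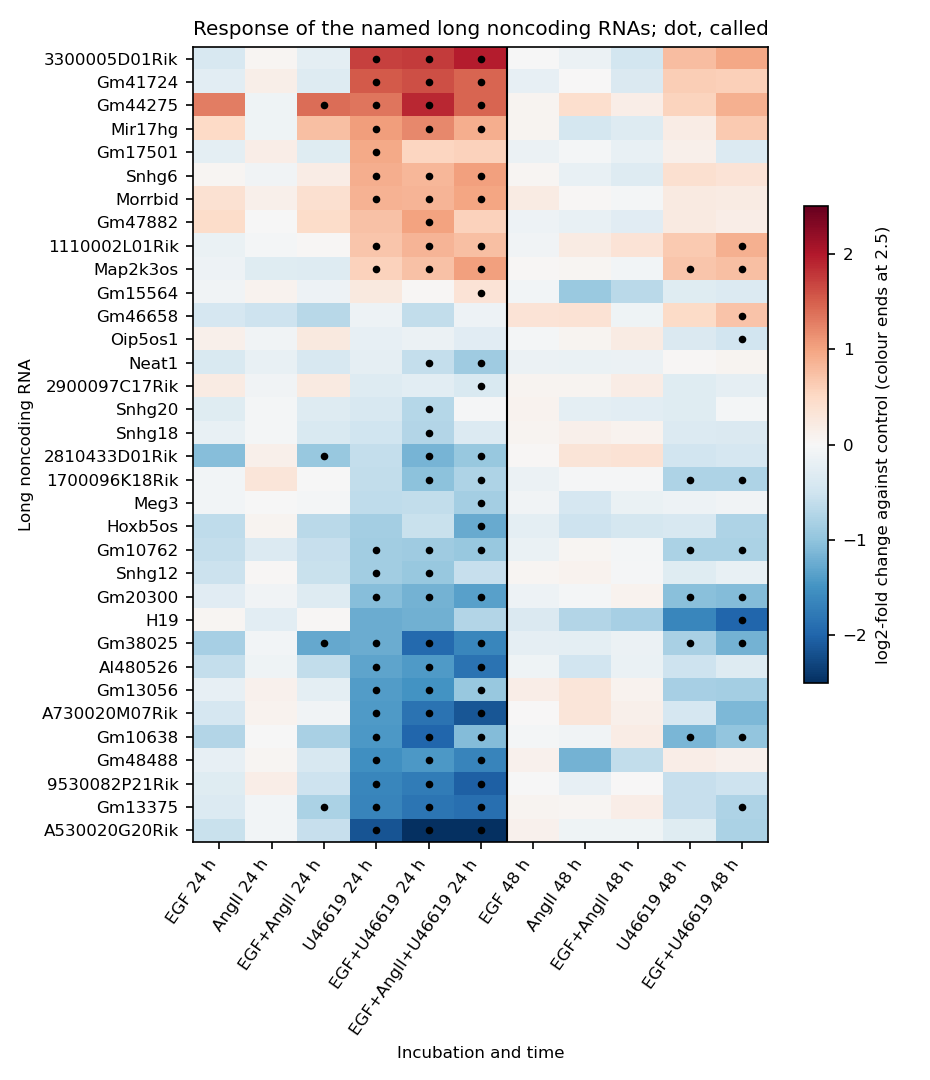
Log2-fold changes against control (colour, ends at 2.5) of the 34 named long noncoding RNAs called in at least 1 comparison, in rows, for the incubations of 24 h and 48 h, in columns; a mark in a cell stands for a call (FDR under 0.05 in edgeR and DESeq2). Columns of EGF and AngII alone are without marks, and the columns with U46619 after 24 h hold the strongest colours.

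The largest rise with U46619 was that of 3300005D01Rik, a lincRNA at chr17:5798657-5803240 (mm10, plus strand) that overlaps no exon of another gene. Its level in the control cultures of mice 1 to 6 was 26.8, 3.55, 9.43, 16.1, 7.23 and 2.64 CPM, and with U46619 it was 26.0, 39.0, 25.4, 54.2, 34.4 and 8.0 CPM. The level was higher in 5 of 6 mice, not in mouse 1, and the groups overlapped. The log2-fold change was 1.72 ± 0.43 (FDR = 0.0026), 1.75 ± 0.43 with EGF+U46619 (FDR = 0.00161) and 1.97 ± 0.43 with all 3 agents (FDR = 0.000492). Against EGF, U46619 gave 2.12 ± 0.43 (FDR = 0.00154), higher in 6 of 6 mice. Its promoter is shown because it belongs to the RNA with the largest rise; capitals mark an AP-1 site (TGANTCA on either strand) at bases 48 to 54 and an E-box (CACGTG) at bases 250 to 255 of the window chr17:5798407-5798706 (plus strand, RefSeq, GRCm38.p6), which runs from 250 bases before to 50 bases after the start.

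3300005D01Rik promoter: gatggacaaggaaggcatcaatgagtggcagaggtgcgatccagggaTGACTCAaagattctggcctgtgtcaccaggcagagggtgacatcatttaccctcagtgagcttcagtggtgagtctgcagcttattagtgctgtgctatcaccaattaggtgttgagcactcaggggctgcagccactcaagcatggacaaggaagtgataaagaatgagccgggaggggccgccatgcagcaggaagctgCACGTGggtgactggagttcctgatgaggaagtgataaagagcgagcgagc

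Gm41724 (chr18:52528661-52577325) is an antisense RNA at Lox, the gene of lysyl oxidase, which crosslinks collagen and elastin. Its levels were 0.80 to 5.95 CPM in the controls (median 2.73) and 4.44 to 12.1 CPM with U46619 (median 6.31). It was higher in 6 of 6 mice, with overlapping groups, by 1.53 ± 0.31 (FDR = 0.000411), and by 1.61 ± 0.32 (FDR = 0.000167) with EGF+U46619. Lox itself was not called: its log2-fold change was 0.60 (FDR = 0.124), from 1067 ± 400.4 to 1597 ± 537.8 CPM (SD, n = 6). Of the exon bases of Gm41724, 5.46% lie in exons of another gene.

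Gm17501 lies at chr3:145650312-145677580 (plus strand), head to head with Ccn1, which encodes a matricellular protein and whose start is 331 bases away on the other strand. In mice 1 to 6 it had 7.36, 13.7, 11.5, 28.6, 35.6 and 39.0 CPM in the controls and 33.5, 46.7, 21.2, 32.0, 36.5 and 46.9 CPM with U46619. The rise was large in mice 1 to 3, whose controls were low, and small in mice 4 to 6. It came to 0.95 ± 0.33 (FDR = 0.0239), and the call was lost without mouse 1 or without mouse 2. Ccn1 rose by 1.49 (FDR = 0.00193), from 632.4 ± 420.2 to 1391 ± 413.4 CPM. After EGF+U46619 the change of Gm17501 was 0.54 ± 0.33 (FDR = 0.195) while Ccn1 rose by 1.22 (FDR = 0.00698).

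Map2k3os, an antisense RNA at chr11:60920917-60931867 (minus strand), starts head to head with Map2k3, which encodes a kinase upstream of p38. Its control cultures had 2.71 to 5.65 CPM (median 3.41), and those with U46619 4.05 to 7.57 CPM (median 4.83), higher in 5 of 6 mice. It rose by 0.58 ± 0.20 with U46619 (FDR = 0.0244), a call lost without mouse 2, 4, 5 or 6, and by 1.02 ± 0.20 with all 3 agents (FDR = 0.000129). Map2k3 rose by 0.64 with U46619 (FDR = 0.000841). The stretches at both pairs of genes are shown because they hold sequence at the start of a noncoding RNA whose coding partner rose too. Each is the part of the RefSeq window of the noncoding RNA that lies outside exons of the coding gene, chr3:145649982-145650126 (plus strand) for Gm17501 and chr11:60931818-60932032 (minus strand) for Map2k3os, both GRCm38.p6. The last 50 bases of each lie after the RefSeq start of the noncoding RNA. That start is the one given above for Map2k3os, and for Gm17501 it is 145650077, which lies 235 bases before the one given above. Capitals mark a TEAD site (GGAATG) at bases 102 to 107, and none of the 5 motifs searched was found in the stretch of Map2k3os.

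Gm17501 and Ccn1: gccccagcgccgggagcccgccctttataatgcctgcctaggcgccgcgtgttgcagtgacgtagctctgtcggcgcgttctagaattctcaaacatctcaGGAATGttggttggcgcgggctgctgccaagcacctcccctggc
Map2k3os and Map2k3: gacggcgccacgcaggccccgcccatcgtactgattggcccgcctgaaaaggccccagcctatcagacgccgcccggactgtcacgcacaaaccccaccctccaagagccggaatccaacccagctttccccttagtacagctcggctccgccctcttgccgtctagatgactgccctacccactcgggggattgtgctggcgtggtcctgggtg

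Promoter windows of 300 bases were available for 76 of the 142 RNAs (89 windows) and for all annotated genes (32851 windows). An AP-1 site was present in 8.99% of the windows of the RNAs and 7.81% of all windows, a TEAD site in 19.1% and 14.7%, a CRE (TGACGTCA) in 3.37% and 1.79%, a CArG box in 3.37% and 1.63%, and an E-box in 14.6% and 7.15%. These shares describe letters on either strand and were not tested.

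Morrbid (chr2:128178319-128502765), a lincRNA known from myeloid cells, where it lowers the expression of the neighbouring proapoptotic gene Bcl2l11, had 8.61 to 43.8 CPM in the controls (median 22.7) and 23.3 to 53.3 CPM with U46619 (median 33.4). It was higher in 6 of 6 mice by 0.86 ± 0.21 (FDR = 0.00189), by 0.84 ± 0.21 with EGF+U46619 (FDR = 0.0018) and by 0.99 ± 0.21 with all 3 agents (FDR = 0.00032). Bcl2l11, 15772 bases away, fell by 1.21 on the log2 scale with U46619 (FDR = 0.0028), from 21.6 ± 5.52 to 9.84 ± 4.11 CPM. Of all genes, 18.4% fell in this comparison, and a link between Morrbid and Bcl2l11 was not tested. Across mice, the groups of Morrbid overlapped.

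Gm44275 (chr6:135312155-135319561) was called in every combination of 2 or 3 agents tested after 24 h. Its levels were 0.20 to 5.45 CPM in the controls (median 2.12), 4.19 to 9.51 CPM with U46619 (median 5.33) and 6.18 to 15.9 CPM with EGF+U46619 (median 7.07). The last group did not overlap with the controls. The log2-fold changes were 1.33 ± 0.39 with U46619 (FDR = 0.0087), 1.89 ± 0.39 with EGF+U46619 (FDR = 0.000331), 1.40 ± 0.39 with EGF+AngII (FDR = 0.0471) and 1.28 ± 0.39 with EGF (FDR = 0.105, not called). Without mouse 2 the call with U46619 was lost, and that with EGF+AngII was lost without mouse 1, 2, 3, 4 or 5.

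Among RNAs lower with U46619 in all 6 mice, A530020G20Rik and Gm13375 fell most. A530020G20Rik (antisense RNA, chr3:121531619-121536206) starts 785 bases from the choline transporter-like gene Slc44a3. Controls of mice 1 to 6 had 13.9, 14.3, 6.10, 2.69, 21.7 and 3.20 CPM, and cultures with U46619 had 2.28, 1.37, 3.12, 0.84, 1.79 and 1.37 CPM. All 6 mice were lower, and 1 of the cultures with U46619 lay above the lowest control. The log2-fold changes were −2.16 ± 0.46 (FDR = 0.000664), −3.05 ± 0.49 with EGF+U46619 (FDR = 1.66e-05) and −3.42 ± 0.50 with all 3 agents (FDR = 3.88e-06), where the groups did not overlap with the controls in the last 2. Slc44a3 fell as well, by 1.32 on the log2 scale with U46619 (FDR = 0.000303). Of the exon bases of A530020G20Rik, 9.25% lie in exons of another gene.

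Gm13375 (antisense RNA, chr2:20969054-20969997) starts head to head with Arhgap21, a RhoGAP gene, and shares no exon base with another gene. Its controls had 14.5, 15.5, 8.07, 6.91, 9.63 and 8.58 CPM in mice 1 to 6, and with U46619 it had 3.75, 2.85, 3.43, 3.73, 1.64 and 3.74 CPM. No culture with U46619 reached the lowest control. The fall was −1.65 ± 0.21 (FDR = 3.05e-06) with U46619, −1.83 ± 0.21 (FDR = 3.44e-07) with EGF+U46619 and −1.89 ± 0.21 (FDR = 1.8e-07) with all 3 agents. Arhgap21 fell by 0.48 on the log2 scale with U46619 (FDR = 0.0454), from 91.1 ± 26.7 to 61.7 ± 12.2 CPM, and was not called with EGF+U46619 (−0.27, FDR = 0.249).

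**Figure D3:**
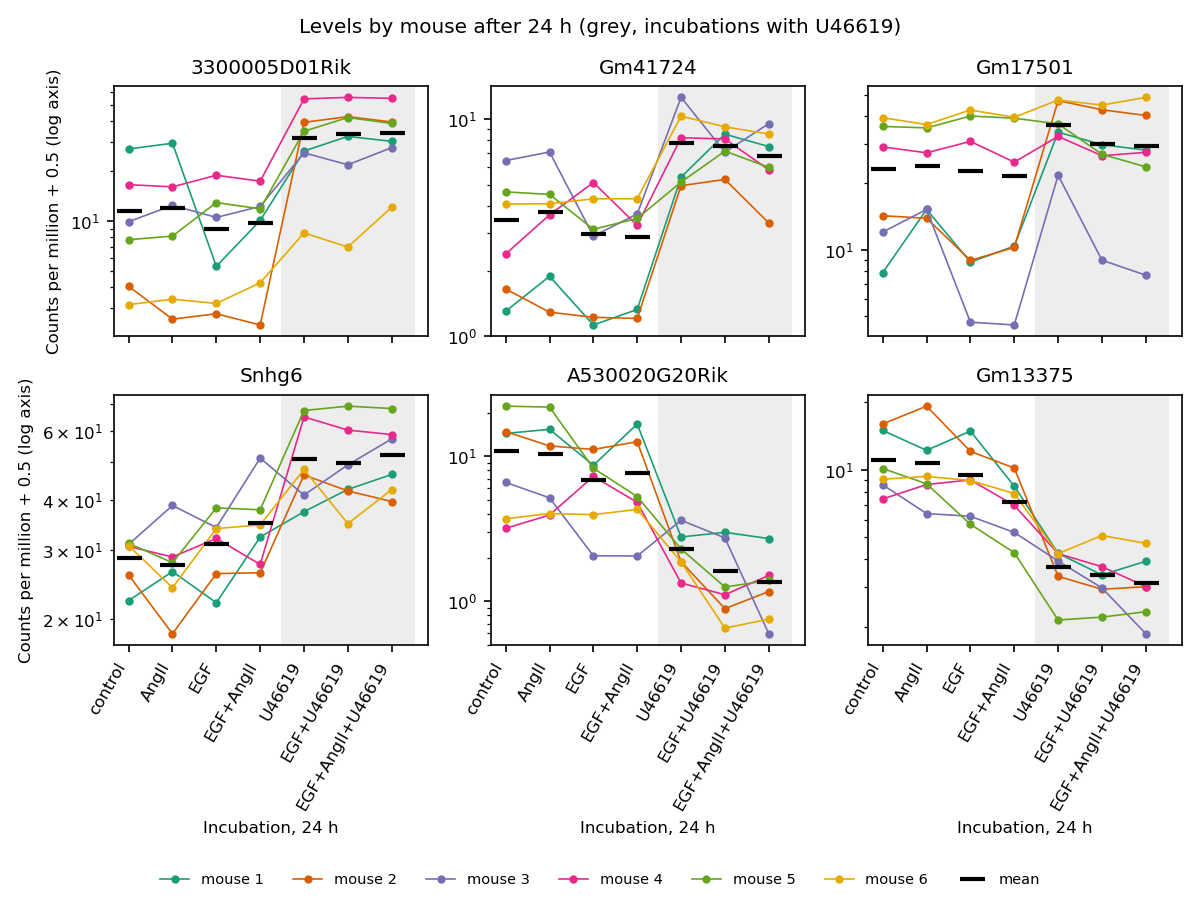
Level of 6 long noncoding RNAs (CPM + 0.5, log axis) in the 7 groups of 24 h, 1 point per mouse and a black bar for the mean (n = 6), with the incubations that contain U46619 on a grey ground. Gm13375 with U46619 lies between 1.64 and 3.74 CPM, under all controls (6.91 to 15.5 CPM), and Snhg6 with U46619 lies between 36.9 and 67.0 CPM, above all controls (21.8 to 30.7 CPM).

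Other large falls with U46619 that went the same way in all 6 mice were those of 9530082P21Rik (−1.63 ± 0.41, FDR = 0.00258; 1.34 to 5.86 CPM in the controls and 0.49 to 1.74 CPM with U46619), Gm48488 (−1.52 ± 0.47, FDR = 0.0124) and Gm10638 (−1.44 ± 0.35, FDR = 0.002; 2.45 to 7.41 CPM and 0.48 to 2.95 CPM). Gm48488 starts 683 bases from Gas1, a growth arrest gene, which fell by 1.35 on the log2 scale (FDR = 0.000512). The call of Gm48488 was lost without mouse 2, 4 or 5. AI480526 fell by 1.31 ± 0.32 on the log2 scale (FDR = 0.00209), Gm38025 by 1.24 ± 0.36 (FDR = 0.00785, lost without mouse 1), A730020M07Rik by 1.42 ± 0.53 (FDR = 0.036, lost without mouse 1, 2 or 5) and Gm13056 by 1.40 ± 0.39 (FDR = 0.00575). Parts of these RNAs occur in other transcripts: 66.1% of the 50-base words of Gm38025, 58.1% of AI480526 and 23.8% of 9530082P21Rik were found in transcripts of other genes, and reads from those words cannot be told apart. Of all 142 RNAs, 19 shared at least 50% of their words with other genes and 30 shared none.

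The fold change of Vax2os, an antisense RNA at Vax2 that falls outside the rule for named genes and was picked after its values were seen, was larger still (−2.86 ± 0.48, FDR = 5.63e-05), but 1 of 6 mice was higher.

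EGF alone called none of the 142 RNAs after 24 h (0 calls), where 0.0273% of all genes were called. Both unadjusted p values were under 0.05 for 25 of the 142 RNAs, beside 17.4% of all genes (2546 of 14653). The edgeR test limited these calls: of all genes, 5 passed by edgeR and 425 by DESeq2, and DESeq2 alone called 5 of the RNAs. The paper, which also required both tools, reports more genes regulated by EGF alone after 24 h than were called here. The cause of that difference was not tested, and 0 calls do not show that EGF left these RNAs unchanged. Without mouse 4 there was 1 call and without mouse 6 there were 3. Brip1os, at rank 4 by CPM, was higher with EGF in 6 of 6 mice, with 115.4 ± 25.7 CPM against 78.1 ± 14.7 CPM (log2-fold change 0.45, FDR = 0.217). Hotairm1, a myeloid and Hoxa-cluster RNA, was lower with EGF in 6 of 6 mice (−0.77 ± 0.23, FDR = 0.102). Neither reached the threshold. AngII alone called none either (0 calls; 0.0% of all genes), and no RNA had both unadjusted p values under 0.05 (0 RNAs, beside 0.444% of all genes).

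EGF+AngII called 4 RNAs after 24 h, 2.82% against 3.2% of all genes (1.6% higher, 1.6% lower). Gm44275 rose, and Gm13375 (−0.79 ± 0.20, FDR = 0.0408), 2810433D01Rik (−0.94 ± 0.24, FDR = 0.0427) and Gm38025 (−1.28 ± 0.36, FDR = 0.0477) fell. None of the 4 calls held when each mouse in turn was left out (0 of 4), each being lost without mouse 1, 2, 3 or 5, and 2 of them also without mouse 4. Counts ranged from 0 to 5 over these fits.

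Comparing incubations directly, U46619 against EGF called 19 RNAs after 24 h (7 higher, 12 lower), 13.4% against 13.3% of all genes (6.82% higher, 6.51% lower). Gm41724 (1.79 ± 0.32, FDR = 0.000457) and Snhg6 (0.86 ± 0.15, FDR = 0.000457) were higher with U46619 than with EGF, and Gm13375 (−1.31 ± 0.21, FDR = 0.000194) was lower, each in 6 of 6 mice. Hotairm1 was also higher with U46619 than with EGF (0.76 ± 0.23, FDR = 0.0261, 6 of 6 mice, lost without mouse 1, 2, 4 or 5). EGF+U46619 against EGF called 21 (5 higher, 16 lower), 14.8% against 15.7% of all genes (7.62% higher, 8.11% lower), led by 3300005D01Rik (2.15 ± 0.43, FDR = 0.00112) and A530020G20Rik (−2.5 ± 0.49, FDR = 0.000876). Without mouse 1, 2, 4 or 5 the first count was 10, 6, 9 and 9, and without mouse 1, 2 or 4 the second was 13, 11 and 12. EGF+U46619 against U46619 called no RNA (0 calls; 0.0% of all genes; 3 RNAs with both unadjusted p values under 0.05), and the interaction of EGF and U46619 called no RNA (0 calls; 0.0% of all genes; 2 RNAs unadjusted). The larger falls with EGF+U46619 than with U46619 alone, as for A530020G20Rik or Gm38025 (−1.95 and −1.24), therefore did not pass a test of the difference.

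Among the snoRNA hosts, whose introns carry the guide RNAs of ribosomal RNA modification, Snhg6 (chr1:9941959-9944118, minus strand, with Snord87) gave the clearest rise. Its levels were 21.8 to 30.7 CPM in the controls (median 30.2), 36.9 to 67.0 CPM with U46619 (median 46.6), 34.4 to 68.7 CPM with EGF+U46619 (median 45.4) and 39.2 to 67.8 CPM with all 3 agents (median 51.4). None of these 3 groups overlapped with the controls, whereas EGF (21.5 to 37.8 CPM) and AngII (17.9 to 38.3 CPM) did. The log2-fold changes were 0.90 ± 0.15 (FDR = 6.13e-05), 0.82 ± 0.15 (FDR = 8.33e-05) and 1.02 ± 0.15 (FDR = 4.98e-06), higher in 6 of 6 mice each.

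Snhg12, the host of several H/ACA snoRNAs, moved the other way: 13.0 to 47.0 CPM in the controls (median 25.3) and 11.1 to 19.6 CPM with U46619 (median 13.7), a fall of 0.86 ± 0.26 on the log2 scale (FDR = 0.00981) that was lost without mouse 1 or 2. Snhg18 fell with EGF+U46619 (−0.73 ± 0.21, FDR = 0.00636, lost without mouse 1) and so did Snhg20 (−0.71 ± 0.23, FDR = 0.0127, lost without mouse 1). Of 17 tested genes of a list of snoRNA hosts, of any biotype, U46619 raised 4 and lowered 4 (median log2-fold change −0.21, beside −0.06 over all genes). Among the 7 RNAs described here that are on this list there were 1 rise and 2 falls, the other fall being Epb41l4aos. Over all genes, 15.0% rose and 18.4% fell, and counts this small are near those shares. In contrast, 5 of 8 genes of the snoRNP core rose and none fell (median 0.82): Nop58 (1.30), Nhp2 (1.28), Nop56 (1.02), Gar1 (0.87) and Fbl (0.78 on the log2 scale).

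Mir17hg (chr14:115042879-115046727) is the primary transcript of the miR-17 to miR-92a cluster, which is known as a target of Myc and E2F in dividing cells. It had 0.70 to 3.82 CPM in the controls (median 1.2), 1.11 to 4.33 CPM with U46619 (median 2.82) and 1.84 to 5.93 CPM with EGF+U46619 (median 3.27). It rose with U46619 by 1.05 ± 0.34 (FDR = 0.0147; 5 of 6 mice higher, lost without mouse 2), with EGF+U46619 by 1.21 ± 0.33 (FDR = 0.00427; 6 of 6 mice) and with all 3 agents by 0.90 ± 0.34 (FDR = 0.0303; 4 of 6 mice, lost without mouse 1, 4 or 6). Groups overlapped in all 3 comparisons. The RNA was prepared by polyA selection, so these reads measure the host and not the mature microRNAs. Those are shown because the cluster's 6 main products fall into 4 seed families (capitals, bases 2 to 8), of which AAAGUGC and GUGCAAA occur in 2 members each; they lie between chr14:115043684-115043706 and chr14:115044476-115044496 on the plus strand (RefSeq).

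miR-17-5p: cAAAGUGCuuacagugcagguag
miR-20a-5p: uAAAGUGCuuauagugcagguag
miR-18a-5p: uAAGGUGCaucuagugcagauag
miR-19a-3p: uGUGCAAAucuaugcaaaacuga
miR-19b-3p: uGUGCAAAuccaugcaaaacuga
miR-92a-3p: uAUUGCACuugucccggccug

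A list of 11 proliferation genes moved beside it: 8 rose with U46619 and none fell (median log2-fold change 1.33), and 11 rose with EGF+U46619 (median 1.55). The shift was not particular to U46619: 6 rose with EGF+AngII (median 1.32), and EGF alone had a median of 1.18 with none called. Of all genes, 15.0% rose with U46619, 18.9% with EGF+U46619 and 1.6% with EGF+AngII. By BrdU incorporation, the paper reports more DNA synthesis with EGF and less with U46619. With both together it reports no significant change, in part because replicates varied strongly. How these genes relate to DNA synthesis was not tested. Of 11 tested microRNA hosts of any biotype, 3 rose with U46619 (Mir17hg, Mir22hg and Mir155hg) and 2 fell (Mir99ahg and Lncppara). Among all genes, 15.0% rose and 18.4% fell in this comparison. Dnm3os, the host of miR-199a-2 and miR-214, was not called in any comparison; with U46619 its log2-fold change was 0.18 ± 0.31 (FDR = 0.68), from 8.53 to 55.1 CPM in the controls (median 24.0) to 12.8 to 34.6 CPM (median 24.2).

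H19 (chr7:142575529-142578143, minus strand), the imprinted host of miR-675, passed the minimum level and was uneven among the mice. In the 24 h controls of mice 1 to 6 it had 0.35, 128.6, 0.40, 4.13, 7.64 and 3.15 CPM. Mouse 2 also had 88.9 CPM with AngII, 63.4 CPM with EGF and 63.9 CPM with EGF+AngII, but 0.42 CPM with U46619, 0.44 CPM with EGF+U46619 and 0.36 CPM with all 3 agents. In the other mice, U46619 gave 0.40, 0.72, 2.41, 5.23 and 2.95 CPM (mice 1, 3, 4, 5 and 6), close to their controls. The log2-fold change with U46619 was −1.24 ± 0.80 (FDR = 0.235) and was −0.17 without mouse 2. With all 3 agents it was −0.72 (FDR = 0.478), and 0.31 without mouse 2. The mature arms of miR-675 are given for reference, with the seed in capitals (chr7:142577112-142577133 and chr7:142577078-142577099, minus strand).

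miR-675-5p: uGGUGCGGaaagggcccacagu
miR-675-3p: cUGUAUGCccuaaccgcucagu

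After 48 h, H19 in the EGF/U46619 batch was 3.38, 7.29, 10.7, 1.45 and 141.3 CPM in the controls of sets 1 to 5, 0.91, 1.21, 1.80, 1.52 and 33.8 CPM with U46619, and 1.02, 1.17, 1.24, 1.46 and 20.9 CPM with EGF+U46619. It was lower in 4 of 5 sets with either incubation, not in set 4. In the EGF/AngII batch, replicate 6 had between 90.1 and 142.2 CPM in all 4 incubations. With EGF+U46619, H19 fell by 1.98 ± 0.61 on the log2 scale (FDR = 0.0418), a call that was lost in 7 of 10 fits that leave out a culture set. With U46619 alone the change was −1.63 ± 0.60 (FDR = 0.106, not called). When culture sets instead of mouse numbers formed the replicate block, the changes were −1.69 (FDR = 0.0107) and −2.02 (FDR = 0.0025), and within the EGF/U46619 batch alone −1.89 (FDR = 0.00329) and −2.26 (FDR = 0.000905).

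**Figure D4:**
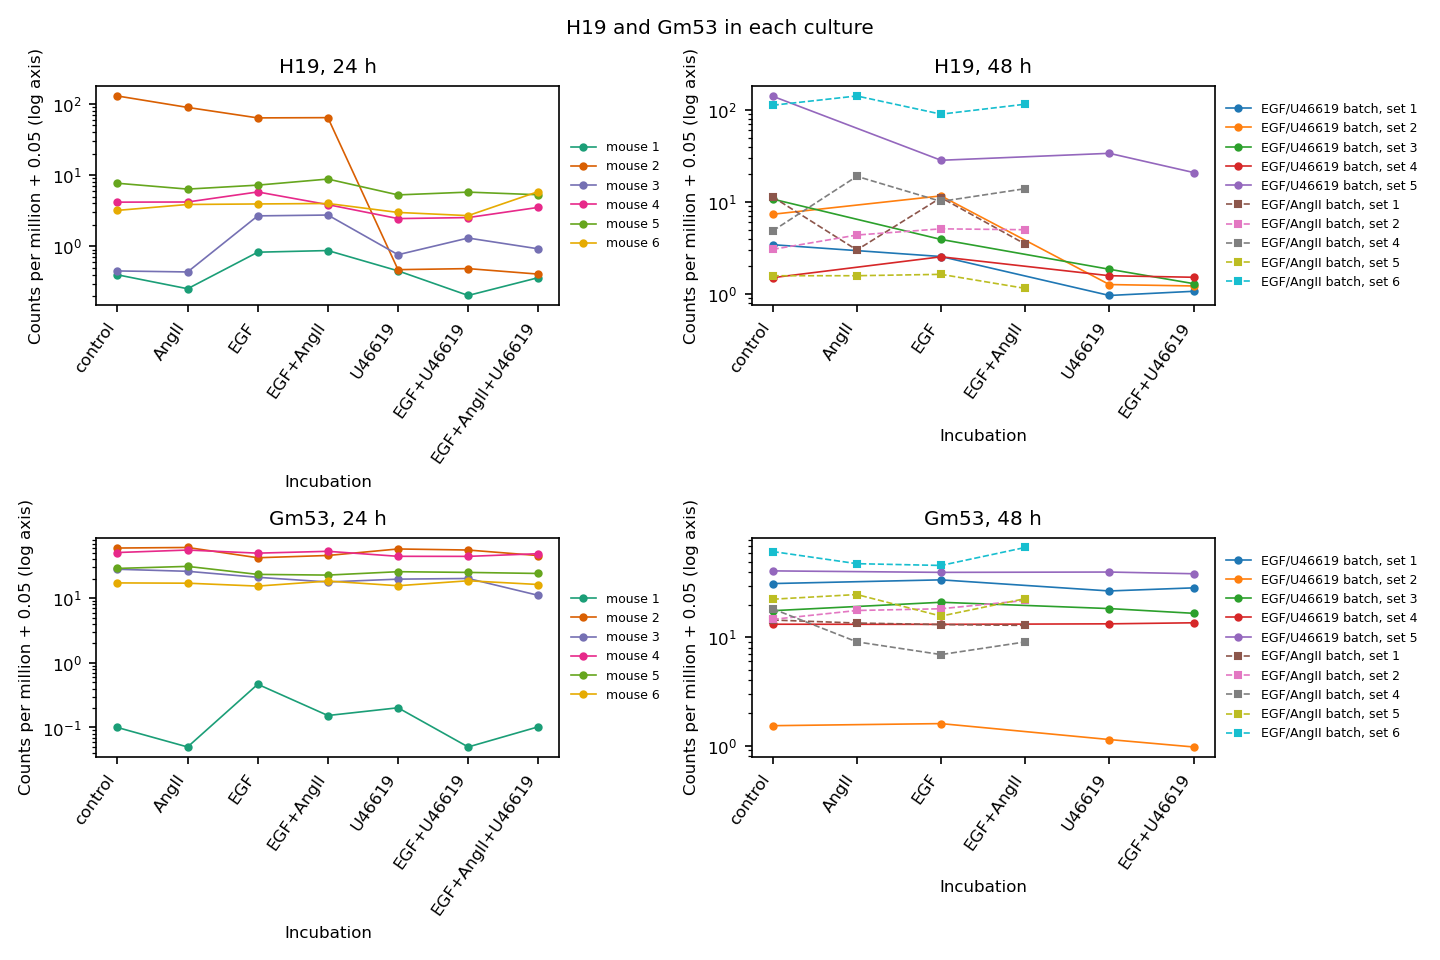
Level of H19 and Gm53 (CPM + 0.05, log axis) in each incubation after 24 h and 48 h, with 1 point per library, coloured by mouse (24 h) or culture set (48 h). H19 of mouse 2 lies at 63.4 to 128.6 CPM without U46619 and at 0.36 to 0.44 CPM with it, and Gm53 of mouse 1 lies under 0.42 CPM in all 7 incubations.

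Of 8 tested imprinted noncoding RNAs, 0 rose and 1 fell with U46619 after 24 h, Peg13, which is not among the 142. Meg3, the maternally expressed RNA of the Dlk1-Dio3 region, had 14.8 to 233.9 CPM in the controls (median 87.1) and 21.5 to 171.7 CPM with U46619 (median 36.0), a log2-fold change of −0.64 ± 0.31 (FDR = 0.102). With all 3 agents it fell by 0.85 ± 0.31 on the log2 scale (FDR = 0.0257; 5 of 6 mice lower, lost without mouse 2 or 5). Mirg of the same region (−0.03 with U46619), and Airn, antisense to Igf2r (−0.31 ± 0.32, FDR = 0.464), were not called. Among 17 tested imprinted protein-coding genes, 6 fell with U46619 and none rose (median −0.61): Cdkn1c (−2.36), Plagl1 (−2.17), Mest (−1.61), Sgce, Ndn and Dcn. In this comparison 33.4% of all genes were called (15.0% higher, 18.4% lower), and whether the imprinted genes differ from them was not tested.

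Of the RNAs of nuclear bodies, Malat1 was not called: it had 296.9 to 555.2 CPM in the controls (median 426.1) and 209.9 to 616.4 CPM with U46619 (median 484.8), a log2-fold change of 0.09 (FDR = 0.856). Neat1 had 188.4 to 564.2 CPM in the controls (median 215.8), 128.1 to 369.7 CPM with U46619 (median 217.5), 76.9 to 378.6 CPM with EGF+U46619 (median 179.3) and 48.3 to 309.8 CPM with all 3 agents (median 137.4). The groups overlapped, but within mice it was lower in 6 of 6 with either combination. It fell by 0.59 ± 0.20 on the log2 scale with EGF+U46619 (FDR = 0.0159, lost without mouse 1 or 2) and by 0.89 ± 0.20 with all 3 agents (FDR = 0.000526; −0.73 without mouse 3), while U46619 alone gave −0.22 ± 0.20 (FDR = 0.402). Of 8 tested genes of paraspeckle proteins, 6 rose with U46619 and none fell (median 0.50), among them Tardbp (0.69) and Sfpq (0.55 on the log2 scale). Over all genes, 15.0% rose and 18.4% fell with U46619. 2900097C17Rik was not called with U46619 against control (−0.32 ± 0.14, FDR = 0.0724) and was lower than with EGF (−0.53 ± 0.14, FDR = 0.0105, lost without mouse 1). Its fall with all 3 agents (−0.38 ± 0.14, FDR = 0.0277) was lost without mouse 2, 3, 4 or 5 (−0.32, FDR = 0.0694, without mouse 3). Oip5os1 was not called after 24 h and fell with EGF+U46619 after 48 h (−0.47 ± 0.14, FDR = 0.0355, lost in 8 of 10 fits without a set).

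No gene rose or fell with U46619 in a list of 10 tested RNAs of vessel, heart and limb bud mesoderm. Carmn, which marks contractile smooth muscle and lies beside the miR-143 and miR-145 genes, had 1.11 to 5.91 CPM in the controls (median 3.37) and 1.67 to 7.42 CPM with U46619 (median 2.90; log2-fold change 0.21 ± 0.25, FDR = 0.545). Pvt1, next to Myc, gave −0.04 ± 0.14 (FDR = 0.83), with 11.1 to 23.0 CPM and 10.9 to 26.3 CPM. A p above the threshold does not show that these levels did not change. Of 8 RNAs linked to p53 and the cell cycle, 2 rose (Mir17hg and Lncpint) and 1 fell (Trp53cor1), near the 33.4% of all genes called with U46619.

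Markers of other cell types moved with the incubations. Of 6 tested markers of adventitial fibroblasts, all 6 fell with U46619 after 24 h (median log2-fold change −1.28), and their summed level was 573 to 889 CPM in the controls (median 669) and 209 to 645 CPM with U46619 (median 291). Over all genes, 18.4% fell and 15.0% rose in this comparison. The 7 smooth muscle markers summed to 1260 to 6080 CPM in the controls (median 2850) and to 4600 to 17700 CPM with U46619 (median 11300), and 3 rose. None of them fell, and their median log2-fold change was 0.29. The 7 tested endothelial markers differed mostly between mice, with sums by mouse whose medians ran from 3.61 to 1730 CPM, and 1 fell. Of the leukocyte markers 3 were tested, 1 rose and 1 fell, and the list summed to 23.2 to 113 CPM in the controls (median 71.8) and 24.5 to 75.4 CPM with U46619 (median 35.4). After 48 h, 2 of the 6 fibroblast markers fell with U46619 (median log2-fold change −0.96) and with EGF+U46619 (−0.71), with sums of 699 to 1810 CPM in the controls, 497 to 1470 CPM with U46619 and 554 to 1650 CPM with EGF+U46619. No tested endothelial or leukocyte marker was called then (0 calls in both comparisons), with medians of −1.62 and −1.51 with U46619 and −1.48 and −1.36 with EGF+U46619. The part of all these markers in the changes of the long noncoding RNAs was not tested. In bulk cultures, fewer cells of a type and less RNA per cell cannot be told apart.

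In the fit blocked on mouse numbers, incubation for 48 h called fewer RNAs than 24 h. That fit has no term for the batch, while U46619 was given in 1 batch and controls were in both. Deviations from the group means correlated over 0.1 in only 5 of 11 comparisons between sets of 1 mouse number. FDR values of single RNAs after 48 h are of that fit unless another is named. U46619 called 9 (1 higher, 8 lower), 6.34% against 4.63% of all genes, and EGF+U46619 called 13 (3 higher, 10 lower), 9.15% against 7.65% of all genes. In 1 direction, 5.63% and 7.04% of the RNAs fell, where 2.08% and 3.75% of all genes fell, and 0.704% and 2.11% rose, where 2.54% and 3.9% of all genes rose. The counts depended on the block: with the culture set as the replicate block they were 21 (3 higher, 18 lower; 12% of all genes) and 25 (4 higher, 21 lower; 16.7% of all genes), and within the EGF/U46619 batch alone 38 (8 higher, 30 lower; 25.1% of all genes) and 45 (14 higher, 31 lower; 30.9% of all genes). Lower RNAs outnumbered higher ones in each of these fits. U46619 and EGF+U46619 had called 42 and 51 RNAs after 24 h, so the drop was smaller in the batch alone. Leaving out set 1, 2, 3 or 4 of the EGF/U46619 batch left 4, 4, 3 and 1 of the calls with U46619, and leaving out set 2, 3, 4 or 5 left 7, 4, 4 and 8 with EGF+U46619. EGF+U46619 against EGF called 9 (2 higher, 7 lower), 6.34% against 5.2% of all genes (2.59% higher, 2.61% lower), and 5, 3 and 4 without set 2, 3 or 4. EGF, AngII, EGF+AngII, and EGF+U46619 against U46619 called none (0 calls each; 0.0% of all genes; 1, 5, 5 and 0 RNAs with both unadjusted p values under 0.05).

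Gm20300, a lincRNA at chr10:30603195-30606634 that overlaps no other gene, gave the most stable fall. With U46619 for 48 h it had 6.65, 6.89, 6.03, 5.28 and 6.82 CPM, and with EGF+U46619 7.76, 5.63, 6.56, 5.55 and 5.81 CPM, against 8.92 to 22.4 CPM in the 10 controls (median 11.9). Neither group overlapped with the controls. It fell by 1.05 ± 0.21 (FDR = 0.00337) and 1.08 ± 0.21 (FDR = 0.0014) on the log2 scale, and both calls held in all 10 fits without a culture set. After 24 h it had 6.5 to 14.3 CPM in the controls and 1.87 to 7.21 CPM with U46619, a fall of 1.06 ± 0.25 (FDR = 0.00154).

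Map2k3os was the only rise with U46619 after 48 h, with 4.42, 3.93, 4.89, 6.28 and 4.56 CPM against 2.55 to 4.26 CPM in the controls (median 3.03), higher in 5 of 5 sets by 0.70 ± 0.14 (FDR = 0.00513). With EGF+U46619 it had 4.34, 5.56, 5.70, 5.64 and 4.03 CPM and rose by 0.76 ± 0.14 (FDR = 0.00135). Its call with U46619 was lost without set 4 of the EGF/U46619 batch, and that with EGF+U46619 held in all 10 fits. Map2k3 was not called after 48 h (0.18, FDR = 0.274, with U46619). 1110002L01Rik, an antisense RNA at Asxl2 with 67.1% of its exon bases in exons of other genes, had 5.36, 4.00, 4.19, 4.24 and 4.54 CPM with EGF+U46619, above all 10 controls (1.57 to 3.73 CPM), and rose by 0.89 ± 0.22 (FDR = 0.0102, lost without set 3). Gm46658 rose with EGF+U46619 (0.72 ± 0.23, FDR = 0.0465, lost in 6 of 10 fits).

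Gm38025 with EGF+U46619 for 48 h had 1.48, 0.99, 1.36, 1.28 and 1.31 CPM, below all controls (1.90 to 5.36 CPM), a fall of 1.18 ± 0.23 on the log2 scale (FDR = 0.00163). Gm10638, antisense to the ubiquitin ligase gene Siah1a, had 1.64, 2.13, 1.18, 1.49 and 1.15 CPM with U46619 against 1.00 to 4.50 CPM in the controls and fell by 1.15 ± 0.28 (FDR = 0.0137, lost without set 3 or 4 of the EGF/U46619 batch). Siah1a was not called (−0.23, FDR = 0.169). Gm10762, antisense to Zc3h6, fell by 0.78 ± 0.23 (FDR = 0.0404) and 1700096K18Rik by 0.76 ± 0.20 (FDR = 0.0238), calls that were lost in 8 and 3 of the 10 fits.

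Of the 42 RNAs called with U46619 after 24 h, 6 (14.3%) were called after 48 h, which is 66.7% of the 9 called then: 2610035D17Rik, Gm10638, Gm10762, Gm20300, Gm38025 and Map2k3os. 2610035D17Rik is named here after its values were seen. For EGF+U46619 it was 9 of 51 (17.6%) and of 13 (69.2%). The overlap depended on the replicate block of the 48 h fit: with the culture set as block it was 15 of 42 (35.7%) and 19 of 51 (37.3%), and in the EGF/U46619 batch alone 22 (52.4%) and 27 (52.9%). The 2 times have separate cultures and controls. In the fit blocked on mouse numbers, the sign after 48 h was that of 24 h in 39 of the 42 and 46 of the 51 RNAs. Among the 32 RNAs that fell with U46619 after 24 h the median log2-fold change was −1.09, and −0.41 for the same RNAs after 48 h. The 10 that rose had medians of 0.93 and 0.47. A530020G20Rik, the largest named fall after 24 h, gave −0.30 after 48 h (FDR = 0.86), and Snhg6 gave 0.40 ± 0.17 (FDR = 0.177). Neither was called with the culture set as block (−0.58, FDR = 0.524, and 0.26, FDR = 0.204) or in the batch alone (FDR = 0.384 and 0.204). The 24 h values chose these RNAs, and the difference between the times was not tested.

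By position, 38 of the 142 RNAs (26.8%) overlapped no other annotated gene, and 63 (44.4%) overlapped a protein-coding gene on the opposite strand. The start of 36 lay within 1000 bases of the start of a protein-coding gene on the opposite strand. Of these 36 head-to-head RNAs, 3 (8.33%) rose and 15 (41.7%) fell with U46619 after 24 h, where 7.04% and 22.5% of the 142 and 15.0% and 18.4% of all genes did, with a median log2-fold change of −0.48, beside −0.22 over all 142. Across the 36 pairs, the log2-fold changes of RNA and coding gene had Pearson's r = 0.612 and Spearman's rho = 0.566, across genes that share libraries and, in part, reads. The 18 called RNAs had 7 partners called with the same sign, 0 with the opposite sign and 11 not called. The 7 called partners are 38.9%, near the 33.4% of all genes called in this comparison.

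Pairs with both called were Gm17501 and Ccn1, Map2k3os and Map2k3, A530020G20Rik and Slc44a3, Gm13375 and Arhgap21, Gm48488 and Gas1, Gm10762 and Zc3h6 (−1.09, FDR = 0.0033), and 4933431E20Rik with the glutathione transferase gene Gstm5 (−1.02, FDR = 0.00198), the last named after its values were seen. In pairs such as Gm10638 and Siah1a (−0.12, FDR = 0.435) or AI480526 and Setd1b (−0.36, FDR = 0.0692) the RNA fell while the coding gene was not called. For the nearest coding gene within 100 kb on either strand, r was 0.376 and rho 0.43 across 116 pairs, and of 37 called RNAs 10 had a neighbour called with the same sign, 2 with the opposite sign and 25 a neighbour that was not called. The 12 called neighbours are 32.4%, where 33.4% of all genes were called.

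**Figure D5:**
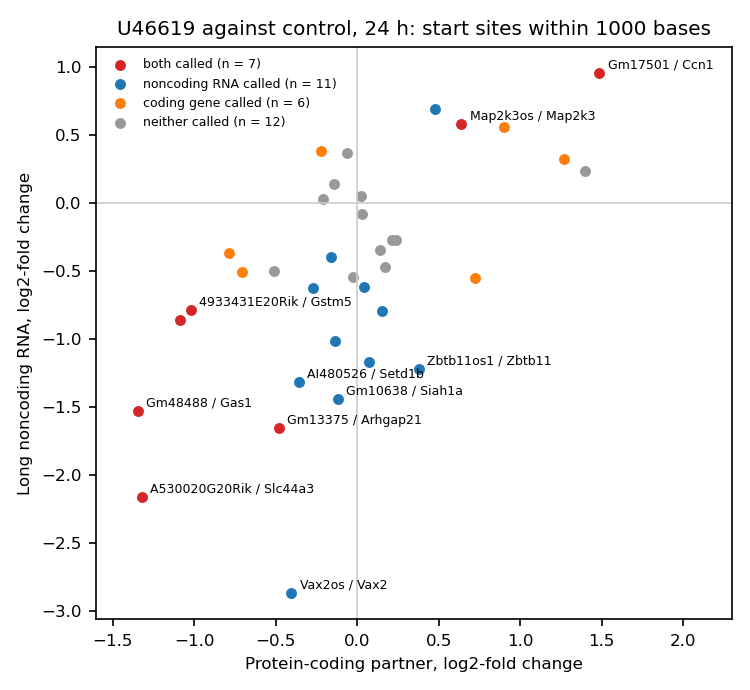
Log2-fold change with U46619 after 24 h of 36 long noncoding RNAs (y axis) and of the protein-coding gene that starts within 1000 bases on the opposite strand (x axis), with colours for the calls. Both were called in 7 pairs, the noncoding RNA alone in 11, the coding gene alone in 6 and neither in 12.

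The mouse was a larger source of spread than the incubation for most RNAs. After 24 h the median share of the sum of squares of log2(CPM + 0.5) was 45.4% between mice, 18.4% between incubations and 26.3% in the rest, against 47.9%, 15.7% and 29.1% over all genes. The incubation exceeded the mouse in 40 RNAs (28.2%), against 22.4% of all genes. The ratio of the highest to the lowest mouse mean had a median of 2.45 over the RNAs, reached 10 in 21 and 100 in 4 of them.

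Gm53, a lincRNA 6589 bases from Hoxb9 (chr11:96251105-96264868), had a mean of 0.11 CPM in mouse 1 and means of 16.9 to 52.4 CPM in the other mice. Gm49980 had means of 12.4 CPM in mouse 6, 2.29 in mouse 4, 0.07 in mouse 5 and at most 0.18 in mice 1 to 3. Gm39822 had 6.83 CPM in mouse 6, 3.78 in mouse 4, 1.94 in mouse 5 and at most 0.02 in mice 1 to 3. Sums of endothelial markers had medians of 1730, 716 and 388 CPM in mice 6, 4 and 5 and of 3.61 to 46.9 CPM in mice 1 to 3. Both RNAs were highest in mice 6 and 4, but in mouse 5 only Gm39822 lay above mice 1 to 3. The part of endothelial cells in these levels was not tested. Gm43549 and Gm47939, which share 78.8% of their sequence words, ran together from 0.95 and 0.90 CPM in mouse 1 to 46.5 and 47.5 CPM in mouse 6, and their counts cannot be told apart in full. Hoxb5os varied from 0.30 to 39.5 CPM among controls and fell with all 3 agents (−1.26 ± 0.43, FDR = 0.0188), in 6 of 6 mice, a call lost without mouse 2 or 5.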

How the data were processed

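RNA-seq of 82 libraries was used, 42 of 24 h and 40 of 48 h, with 16483529 to 33916114 counts each. The deposited values are raw read counts per gene, which the authors made with HISAT2 2.1.0 (mm10) and featureCounts, with multi-mapping reads counted. One model with mouse and incubation was fitted per time point to all genes kept by edgeR's filterByExpr, with edgeR 4.0.16 (TMM, quasi-likelihood test) and DESeq2 1.42.0 (Wald test) in R 4.3.3. A gene was called where the Benjamini-Hochberg adjusted p was under 0.05 in both. SEs are the log2-fold change divided by the root of the F statistic. Levels are CPM of the library total. They were ranked by CPM without a correction for length, and also per kilobase of exon, the scale for comparisons between genes. The scripts were tested on simulated data.

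Replicates stem from different mice by the methods, and cultures with 1 number share a mouse after 24 h: their deviations from the group means correlated over 0.1 in 126 of 126 pairs (lowest 0.389). After 48 h the labels give 5 mouse numbers for 10 culture sets. Within sets 57 of 60 pairs correlated over 0.1, but only 5 of 11 comparisons between sets of 1 mouse number. All 142 RNAs matched GENCODE M21 by identifier. Named genes were H19, the RNAs highest in level, the largest changes that went the same way in every mouse or set, the lists of hosts, imprinted, nuclear, cell cycle and vascular RNAs, and the most variable RNAs. Members and lists were chosen with earlier results of these data known. Genes on chromosomes 9, X, Y and MT are not analysed here. Alternatives were the tool, scaling, filters, blocks, batches and leaving out each replicate.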

Additional observations from a re-analysis of the deposited data

Results flagged for a closer look

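In 234 groups of 4 to 10 libraries tested for 18 RNAs, 16 held a library far from the others by Dixon's criterion, which by chance marks about 1 group in 20. H19 had 20.9 CPM with EGF+U46619 and 33.8 CPM with U46619 in set 5 of the EGF/U46619 batch after 48 h, where the other 4 sets had 1.02 to 1.47 CPM and 0.91 to 1.8 CPM. Gm17501 had 8.45 CPM with EGF+U46619 in mouse 3 after 24 h (others 26.1 to 44.5 CPM). Gm13375 had 1.64 CPM with U46619 in mouse 5 (others 2.85 to 3.74 CPM). Gm10638 had 2.6 CPM with EGF+U46619 in mouse 6 (others 0.552 to 0.923 CPM). Gm44275 had 0.876 CPM with all 3 agents in mouse 3 (others 5.35 to 10.3 CPM), the library that also stood apart in Malat1. With AngII for 48 h, Snhg6 had 44.7 CPM in replicate 6 of the EGF/AngII batch (others 23.3 to 27.5 CPM), and 1110002L01Rik had 4.81 CPM in replicate 1 (others 2.54 to 2.75 CPM).

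Gm53 in mouse 1 stood below the other mice in all 7 groups of 24 h: 0.05 CPM in the control, 0.416 with EGF, 0.0 with AngII, 0.152 with U46619, 0.103 with EGF+AngII, 0.0 with EGF+U46619 and 0.0525 with all 3 agents, where the lowest value of another mouse was 11.0 CPM. These 7 values are of 1 mouse. After 48 h the control of set 2 of the EGF/U46619 batch had 1.48 CPM of Gm53 (others 13.2 to 62.1 CPM).

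Gm46658 with EGF+U46619 differed in direction between the times: the log2-fold change was −0.624 after 24 h, lower in 6 of 6 mice, and 0.715 after 48 h, higher in 5 of 5 sets. It was not called after 24 h (FDR = 0.0932), and the 48 h call (FDR = 0.0465) was lost in 6 of 10 fits that leave out a culture set. The difference itself was not tested.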

How the results depend on the processing

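Number of called RNAs after 24 h for U46619, EGF+U46619 and all 3 agents against control: 26, 32 and 37 when at least 5 FPM (CPM scaled by TMM) was required in a group, 11, 12 and 14 among the 38 RNAs that overlap no other gene, and 10, 26 and 25 without the replicate block. For U46619 against EGF, 9 of the RNAs without overlap were called, and 1 RNA without the block. For EGF+U46619 against EGF the counts were 13 (5 FPM), 9 (no overlap) and 2 (no block). DESeq2 alone called 5 with EGF and 11 with EGF+AngII. Without a low-count filter EGF called 1, and without the block EGF+AngII called 0.

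After 48 h, U46619 and EGF+U46619 called 2 and 5 (5 FPM), 5 and 6 (no overlap), 3 and 5 (no low-count filter), 3 and 3 (no replicate block), 21 and 25 (culture set as the replicate block), and 38 and 45 (EGF/U46619 batch alone). EGF+U46619 against EGF called 14 by DESeq2 alone, 5 (5 FPM), 4 (no block), 22 (culture set as the block) and 22 (batch alone). Fewer genes or samples enter the 5 FPM, overlap and batch settings by construction, and the cause of the other shifts was not tested. Shares of all genes were given above only for comparisons with control after 48 h, by culture set as block and batch alone. For the other settings they are not given, so these counts do not show whether the RNAs differ from all genes.

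Leaving out 1 replicate gave 24 to 47 calls for U46619 after 24 h, 40 to 59 for EGF+U46619, 42 to 60 for all 3 agents, 0 to 5 for EGF+AngII, 0 to 3 for EGF, 6 to 26 for U46619 against EGF and 11 to 30 for EGF+U46619 against EGF, and after 48 h 1 to 9, 4 to 13 and 3 to 8 for U46619, EGF+U46619 and EGF+U46619 against EGF. The other comparisons stayed at 0. Shares of all genes are not given for these fits, so the ranges do not show whether the RNAs differ from all genes.

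The sign turned only for H19, in comparisons where it was not called. EGF after 24 h gave 0.06, and −0.853 without the block and −0.256 to 0.713 without a replicate. EGF+AngII after 24 h gave 0.02, and −0.867 without the block and −0.319 to 0.677 without a replicate. All 3 agents gave −1.245 to 0.313 without a replicate. After 48 h, EGF gave 0.272 in the EGF/AngII batch alone and −0.54 to 0.067 without a set. AngII gave 0.243 in the batch alone, 0.005 with the culture set as block, 0.23 without the block and −0.992 to 0.017 without a set, and EGF+AngII 0.01 in the batch alone. Leaving out the control library of replicate 4 of the EGF/AngII batch, chosen after seeing the data, kept all 7 counts within 1.5 times and, of the named values, 26 kept their side of the threshold and 3 no longer passed it. RNAs near 2 CPM rest on few reads per library, which limits what can be detected at this depth.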
